A study of Mus musculus with 24 samples.

Results

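The 39 Hox genes of the mouse were followed across RNA-seq of mouse embryonic fibroblasts (MEFs). Members were the protein-coding genes named Hox with a cluster letter a to d and a paralog number, and they made up 39 of the 55471 genes of the count tables: 11 in the Hoxa cluster, 10 in Hoxb, 9 in Hoxc and 9 in Hoxd. The 24 libraries fell into 8 groups of 3, with 4 genotypes that were each left untreated or given IL-1β, an inflammatory cytokine, for 6 hours. The genotypes were WT, LKB1 knockout (*Lkb1*-/-), and LKB1/CRTC2 knockout clone A1 and clone A2. *Lkb1* (*Stk11*) encodes a tumor suppressor kinase, and *Crtc2* encodes a coactivator of the transcription factor CREB. The cells were immortalized 3T3 MEFs, each genotype was 1 line, and each clone grew from a single *Lkb1*-/- cell after CRISPR cutting in the first exon of *Crtc2*, so the clones carry the LKB1 loss too and genotype cannot be told apart from line. The comparisons ask whether the Hox pattern differed with loss of LKB1, with loss of CRTC2 on that background, and with IL-1β.

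Hox genes encode transcription factors that give cells their place along the head-to-tail axis and along the limb. Within each cluster the order of the genes on the chromosome matches the order of their domains in the embryo, with low paralog numbers acting anteriorly or proximally and the highest numbers posteriorly and distally. Adult fibroblasts in culture keep the Hox pattern of the site they came from, through Polycomb and Trithorax chromatin regulators, which is why the pattern is called positional memory.

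Counts are of reads on the strand of the gene. The libraries held between 38842901 and 48594394 counts on genes. *Stk11* RNA lay between 83.4 and 87.9 CPM (counts scaled to a fixed library total) in the WT libraries and between 16.3 and 23.2 CPM in all others, and *Crtc2* RNA lay between 79.1 and 84.6 CPM in *Lkb1*-/- libraries and between 41.1 and 56.4 CPM in the clones, so the RNA of the targeted genes was lower but present. Of 15 fibroblast markers, which summed to between 6230 and 10900 CPM per library, only *Thy1* was at or under 3 counts in every library, while *Pdgfra* was at 3.71 to 6.09 CPM in WT libraries and at 208 to 605 CPM in the others. Of the 15, 12 passed the filter on low counts described below. In untreated *Lkb1*-/- against WT, 5 were called higher and 5 lower, against 30.1% and 25.8% of all genes. Summed markers per library reached at most 2.95 CPM for epithelium (9 genes, *Krt5* and *Esrp1* at or under 3 counts everywhere), 3.85 CPM for endothelium (5 genes, *Cdh5* and *Emcn*), 6.82 CPM for blood cells (6 genes, of which 5, *Ptprc* among them) and 1.28 CPM for muscle (5 genes, *Myod1*, *Myog* and *Ckm*). The 6 neural genes, of which *Sox2* was at or under 3 counts everywhere, summed to between 113 and 227 CPM. The Y-linked genes *Ddx3y*, *Kdm5d*, *Eif2s3y* and *Uty*, with *Xist*, summed to at most 0.21 CPM in WT libraries and to between 248 and 293 CPM in all other libraries, so the WT libraries stood apart from the rest in sex-linked RNA too, whose part in the results was not tested. Replicates were numbered 1 to 3 in every group, and the labels do not say that they were separate cultures, so p-values measure only the spread between these libraries. Tests are edgeR's quasi-likelihood test over all genes that passed a filter on low counts, FDR is its Benjamini-Hochberg adjusted p, an FDR under 0.05 is termed a call, and ± after a log2 fold change is its SE. A second fit, blocked on replicate number, is given where it changed a call. Most members were named from calls whose groups did not overlap, so lack of overlap describes them and is no support. Overlap was not counted over all genes. In bulk RNA, fewer cells expressing a gene and less RNA per cell cannot be told apart.

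Promoters of paralogs that parted in these cells are shown because the data turn on them. *Hoxd13* and *Hoxd10* had counts in WT libraries only, and *Hoxa13* and *Hoxa10*, their paralogs on another chromosome, were expressed in every library. The sequences are the 250 bases before the start of transcription (RefSeq, GRCm38.p6), read 5′ to 3′ on the gene's strand, with TATAAA and CCAAT, on either strand, in capitals.
Hoxd13, chr2:74667975-74668224, plus strand: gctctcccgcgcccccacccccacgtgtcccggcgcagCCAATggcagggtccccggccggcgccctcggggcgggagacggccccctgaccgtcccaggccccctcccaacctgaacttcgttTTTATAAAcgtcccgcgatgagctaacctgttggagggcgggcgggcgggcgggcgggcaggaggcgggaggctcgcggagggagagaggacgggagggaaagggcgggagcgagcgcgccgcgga
Hoxd10, chr2:74691641-74691890, plus strand: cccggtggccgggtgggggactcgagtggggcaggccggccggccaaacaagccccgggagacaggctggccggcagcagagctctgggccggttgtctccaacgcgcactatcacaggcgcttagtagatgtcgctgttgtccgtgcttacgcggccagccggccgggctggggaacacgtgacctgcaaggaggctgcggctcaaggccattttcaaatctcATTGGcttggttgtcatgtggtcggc
Hoxa13, chr6:52260881-52261130, minus strand: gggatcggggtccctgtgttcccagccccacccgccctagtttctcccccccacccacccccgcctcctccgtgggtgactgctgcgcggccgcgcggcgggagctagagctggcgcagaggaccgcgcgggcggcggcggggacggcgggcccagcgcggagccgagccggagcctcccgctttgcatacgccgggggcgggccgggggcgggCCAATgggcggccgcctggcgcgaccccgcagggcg
Hoxa10, chr6:52234940-52235189, minus strand: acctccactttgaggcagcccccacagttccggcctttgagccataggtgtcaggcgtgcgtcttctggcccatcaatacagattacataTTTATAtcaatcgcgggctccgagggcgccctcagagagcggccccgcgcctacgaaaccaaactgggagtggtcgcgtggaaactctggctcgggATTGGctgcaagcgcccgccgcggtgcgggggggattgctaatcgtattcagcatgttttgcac
The *Hoxd13* and *Hoxa13* stretches were the richest in CpG of these, with 31 and 35 CpG and a G+C content of 74.4% and 80.0%. The *Hoxd10* and *Hoxa10* stretches held 20 CpG each. RefSeq gives *Hoxa10* 2 starts, and the inner one is shown. The window of 300 bases at the outer start, which is the 5′ end used for distances, lies at chr6:52240805-52241104 and held 12 CpG and neither TATAAA nor CCAAT. In windows of 300 bases that reach 50 bases past the start, a CpG count was available for 24 windows of 22 Hox genes, with a median of 14.5, against 7 over all 32851 promoters. TATAAA or its reverse complement was in 4 of the 24 Hox windows and in 13.6% of all promoters, and CCAAT or its reverse complement in 15 of 24 and in 37.4%. In the *Hoxd13* stretch the TATAAA matches of the 2 strands overlap. The cyclic AMP response element TGACGTCA, which CREB binds and which reads alike on both strands, was in 1.79% of all promoters and in none of the 24 Hox windows, which says only that these letters are absent from these windows.

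All 11 Hoxa genes had counts in every library, 6 of the 9 Hoxd genes were expressed in WT MEFs only, and the Hoxb and Hoxc clusters stayed at or near 0 counts throughout. In untreated WT MEFs the Hoxd cluster held 57.9% ± 0.445 (SD, n = 3) of the summed Hox level per length (CPM per kb of exon) and the Hoxa cluster 42.1% ± 0.45, whereas in the other genotypes the Hoxa cluster held at least 99.9% on average. The 11 Hoxa genes summed to 91.1 ± 6.45 CPM per kb in untreated WT, 111 ± 8.39 in *Lkb1*-/-, 109 ± 7.02 in A1 and 130 ± 17 in A2. The 10 Hoxb genes together had 42 counts over all 24 libraries and the 9 Hoxc genes 34, with at most 3 and 4 counts for a gene in a library, which is at or near the level of 3 counts that a gene without reads allows (0.0604 to 0.0782 CPM). *Hoxb6* and *Hoxc13*, the highest members of these clusters per length, had 11 counts each over the 24 libraries. *Hoxb2*, *Hoxb8* and *Hoxc11* had no count on their own strand.

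**Figure D1:**
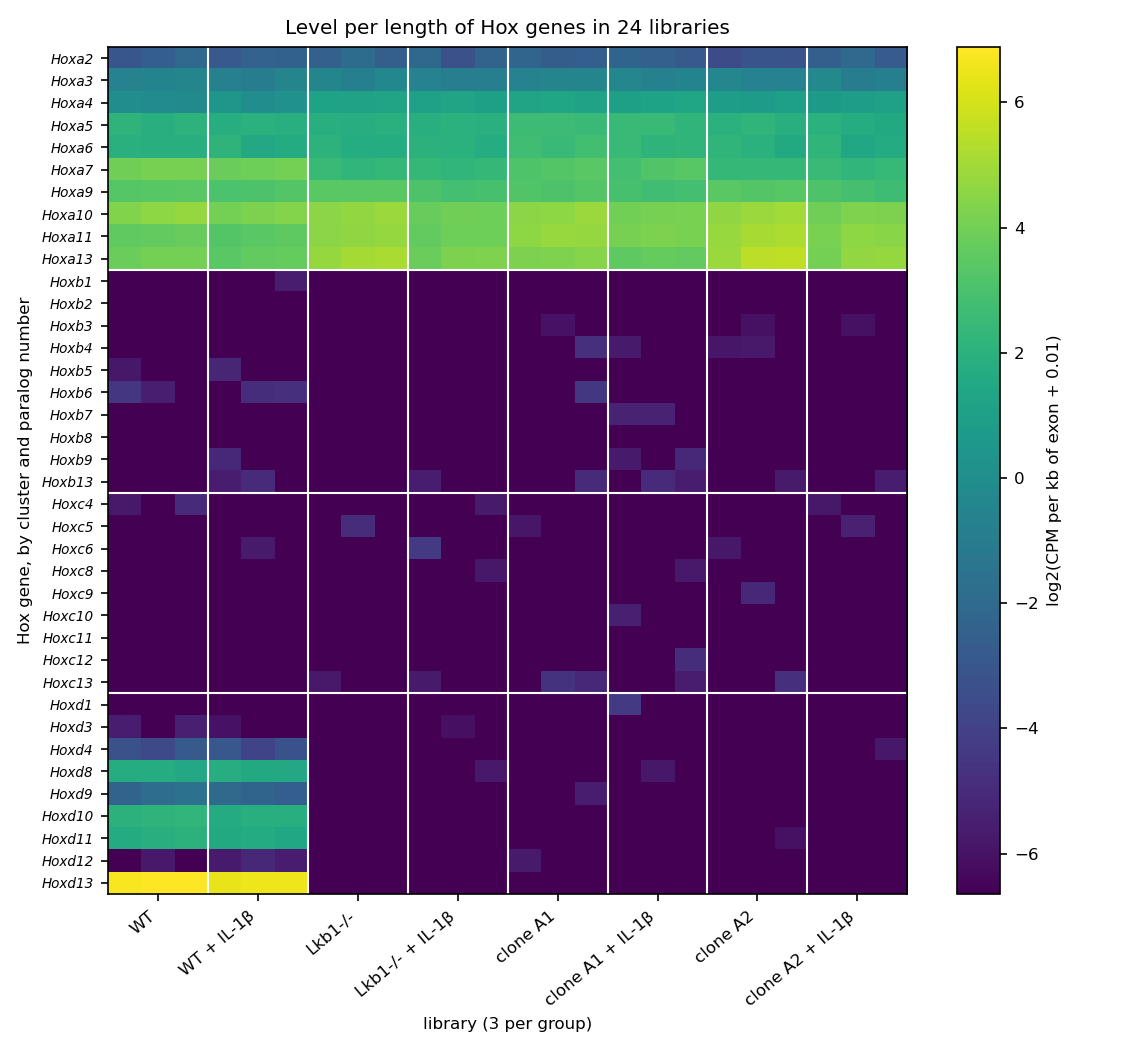
Rows are Hox genes by cluster and paralog number, columns the 24 libraries in groups of 3, and color the log2 of CPM per kb of exon plus 0.01. The Hoxa block is lit in every library, the Hoxd block in the 6 WT libraries only, and the Hoxb and Hoxc blocks hold at most 4 counts per cell.

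*Hoxd13*, a master regulator of digits and of the genital tubercle, was the most expressed Hox gene of the WT line and had no count elsewhere. It had 265, 289 and 294 CPM in the 3 untreated WT libraries and 216, 231 and 228 CPM in the 3 given IL-1β, and 0 counts in all 18 libraries of the other genotypes. At 114 ± 6.31 CPM per kb (SD, n = 3) it ranked 322 among 55144 genes per length in untreated WT MEFs. Against the floor of 3 counts per library its level in untreated WT MEFs was at least 3960-fold higher than in untreated *Lkb1*-/- MEFs, at least 3860-fold higher than in A1 and at least 4070-fold higher than in A2.

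The rest of the Hoxd cluster followed at much lower levels. *Hoxd11*, which with its Hoxa paralog patterns the forearm, had 13.5, 15.1 and 17.7 CPM in untreated WT libraries, *Hoxd10* 7.37, 8.15 and 8.71 CPM, and *Hoxd8*, toward the anterior side of the cluster, 9.07, 8.93 and 7.9 CPM. *Hoxd9* had 0.402 to 0.704 CPM there and *Hoxd4* 0.207 to 0.391 CPM, the latter uncertain because 52.3% of its exonic bases overlap *Hoxd3* or a neighboring transcript on the same strand. *Hoxd12*, which lies between *Hoxd13* and *Hoxd11*, had at most 2 counts in any library, *Hoxd3* at most 2 (62.3% of its exonic bases overlap) and *Hoxd1* at most 3. In the 18 libraries outside WT, the 9 Hoxd genes had 10 counts in all, 3 of them of *Hoxd1* in 1 A1 library. Per length, *Hoxd10* (4.45 ± 0.371 CPM per kb), *Hoxd11* (3.66 ± 0.509) and *Hoxd8* (3.15 ± 0.232) followed *Hoxd13* in untreated WT, with overlapping ranges between neighbors in this order, and *Hoxd9* (0.266 ± 0.0718) lay below them.

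The 6 Hoxd genes that passed the filter on low counts did so through the WT libraries, so they had to be called in any comparison with WT, and their calls are given as a description. All 6 were called lower in *Lkb1*-/-, A1 and A2 than in WT untreated MEFs, and in *Lkb1*-/- than in WT after IL-1β. Among all 17522 genes tested, 25.8% were called lower in untreated *Lkb1*-/- than WT, 25.1% in A1 and 27.9% in A2. The lower bound of the fold was 216 for *Hoxd11*, 113 for *Hoxd10*, 121 for *Hoxd8*, 7.96 for *Hoxd9* and 4.04 for *Hoxd4* between untreated WT and *Lkb1*-/- MEFs.

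Of the genes beside the cluster, *Evx2* had counts in WT libraries only, while *Lnpk* and *Mtx2*, farther away, were expressed in every genotype. *Evx2*, a homeobox gene at -8.8 kb from *Hoxd13* (negative on the side away from *Hoxd12*), had 6.9, 7.48 and 8.01 CPM in untreated WT libraries and 0 counts in all 18 libraries without LKB1, at least 104-fold lower in untreated *Lkb1*-/- MEFs. *Lnpk*, which encodes a protein of endoplasmic reticulum junctions and starts at -88.9 kb from *Hoxd13*, was expressed in all libraries, with means of 71.6 CPM in untreated WT and 46.9 CPM in *Lkb1*-/- (log2 fold change -0.61 ± 0.05 SE, FDR 2.58e-09). *Mtx2*, which encodes a protein of the mitochondrial outer membrane and starts 157.5 kb from *Hoxd13* on the other side, had 52.7 CPM in untreated WT and 57.1 CPM in *Lkb1*-/- and was not called between them.

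**Figure D2:**
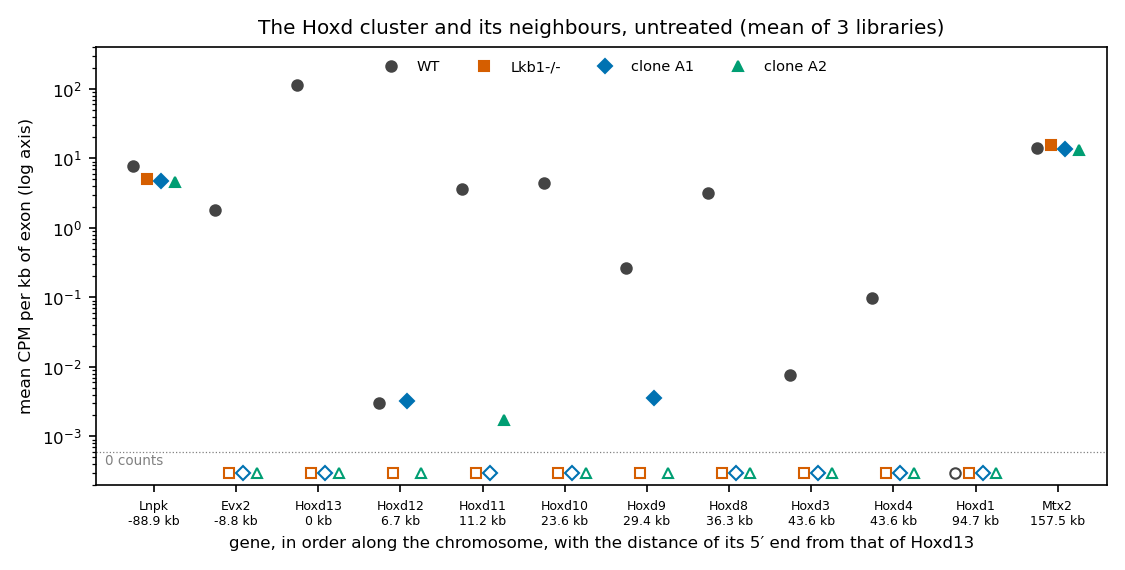
Mean CPM per kb of exon on a log axis in untreated MEFs of each genotype, for the Hoxd genes and their neighbors in chromosome order, with the distance of each 5′ end from that of Hoxd13 and open symbols for groups with 0 counts. For Evx2, Hoxd13, Hoxd11, Hoxd10, Hoxd9, Hoxd8 and Hoxd4 the WT symbols lie above those of the other genotypes, which had at most 1 count, while Hoxd12 had 1 count in WT and 1 in A1, and Lnpk (71.6 to 42.1 CPM) and Mtx2 (57.1 to 48.0 CPM) were expressed in all 4 genotypes.

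The Hoxa cluster carried a posterior-weighted pattern in every line. *Hoxa9*, *Hoxa10*, *Hoxa11* and *Hoxa13*, the posterior members, made up 68.8% ± 1.58 of the Hoxa level per length in untreated WT MEFs, 83.8% ± 2.05 in *Lkb1*-/-, 74.5% ± 0.652 in A1 and 86.3% ± 2.83 in A2. In untreated WT MEFs *Hoxa10* was highest (23.8 ± 3.22 CPM per kb), followed by *Hoxa7* (16.7 ± 0.979) and *Hoxa13* (16.0 ± 1.53), whose ranges overlapped, and then *Hoxa11* (12.7 ± 0.71) and *Hoxa9* (10.3 ± 0.496). In untreated *Lkb1*-/- MEFs *Hoxa13* (31.9 ± 4.32), *Hoxa10* (25.9 ± 3.07) and *Hoxa11* (24.7 ± 1.62) were highest, each overlapping its neighbor, and *Hoxa7* (5.2 ± 0.474) came after *Hoxa9* (10.7 ± 0.0756). The anterior genes were low in both: *Hoxa3*, a gene of the pharyngeal arches, lay at 0.68 ± 0.0591 CPM per kb in WT and 0.698 ± 0.114 in *Lkb1*-/-, and *Hoxa2*, the selector of the second pharyngeal arch, at 0.168 ± 0.0619 and 0.196 ± 0.0567.

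Untreated *Lkb1*-/- MEFs had higher *Hoxa4*, *Hoxa11* and *Hoxa13* and lower *Hoxa7* than WT MEFs. *Hoxa7*, a gene of the trunk, had 44.8, 49.4 and 49.9 CPM in WT libraries and 16.4, 13.7 and 14.7 CPM in *Lkb1*-/- libraries (log2 fold change -1.68 ± 0.11, FDR 3.11e-11). *Hoxa13*, the paralog of *Hoxd13* in the autopod, had 35.1, 41.7 and 41.6 CPM in WT and 67.2, 81.6 and 88.0 CPM in *Lkb1*-/- (1.0 ± 0.18, FDR 6.12e-05). *Hoxa11*, a gene of the forearm and lower leg, had 27.5, 28.7 and 30.7 CPM in WT and 52.7, 56.7 and 60.0 CPM in *Lkb1*-/- (0.96 ± 0.11, FDR 1.94e-07). In each of these genes the groups did not overlap. *Hoxa4*, an anterior trunk gene at a low level, had 1.59, 1.43 and 1.41 CPM in WT and 3.6, 3.5 and 3.79 CPM in *Lkb1*-/- (1.3 ± 0.15, FDR 1.33e-07), again without overlap. Of the 11 Hoxa genes, 3 were called higher and 1 lower, against 30.1% of all genes called higher and 25.8% lower (55.9% in all), and the median Hoxa log2 fold change was 0.12, against 0.04 over all genes. The other 7 were not called, and with the replicate number as a block *Hoxa10* (0.12) was called too (FDR 0.0434).

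After IL-1β the same comparison called 3 Hoxa genes higher and 2 lower in *Lkb1*-/- than WT, against 30.2% and 27.1% of all genes (57.4% together). *Hoxa4* (0.91 ± 0.14, FDR 1.25e-05), *Hoxa13* (0.5 ± 0.18, FDR 0.0213) and *Hoxa11* (0.39 ± 0.11, FDR 0.00474) were higher, and *Hoxa7* (-1.6 ± 0.11, FDR 6.88e-11) and *Hoxa10* (-0.35 ± 0.13, FDR 0.0224) were lower. *Hoxa10*, which acts in the proximal limb and the uterus, had 54.0, 61.2 and 67.8 CPM in WT and 43.1, 51.1 and 49.5 CPM in *Lkb1*-/- libraries given IL-1β. The call of *Hoxa13* was lost without WT library 1 (FDR 0.0853), *Lkb1*-/- library 2 (0.0696) or 3 (0.102), and that of *Hoxa10* without *Lkb1*-/- library 1 (0.106) or WT library 2 (0.0519) or 3 (0.0589).

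**Figure D3:**
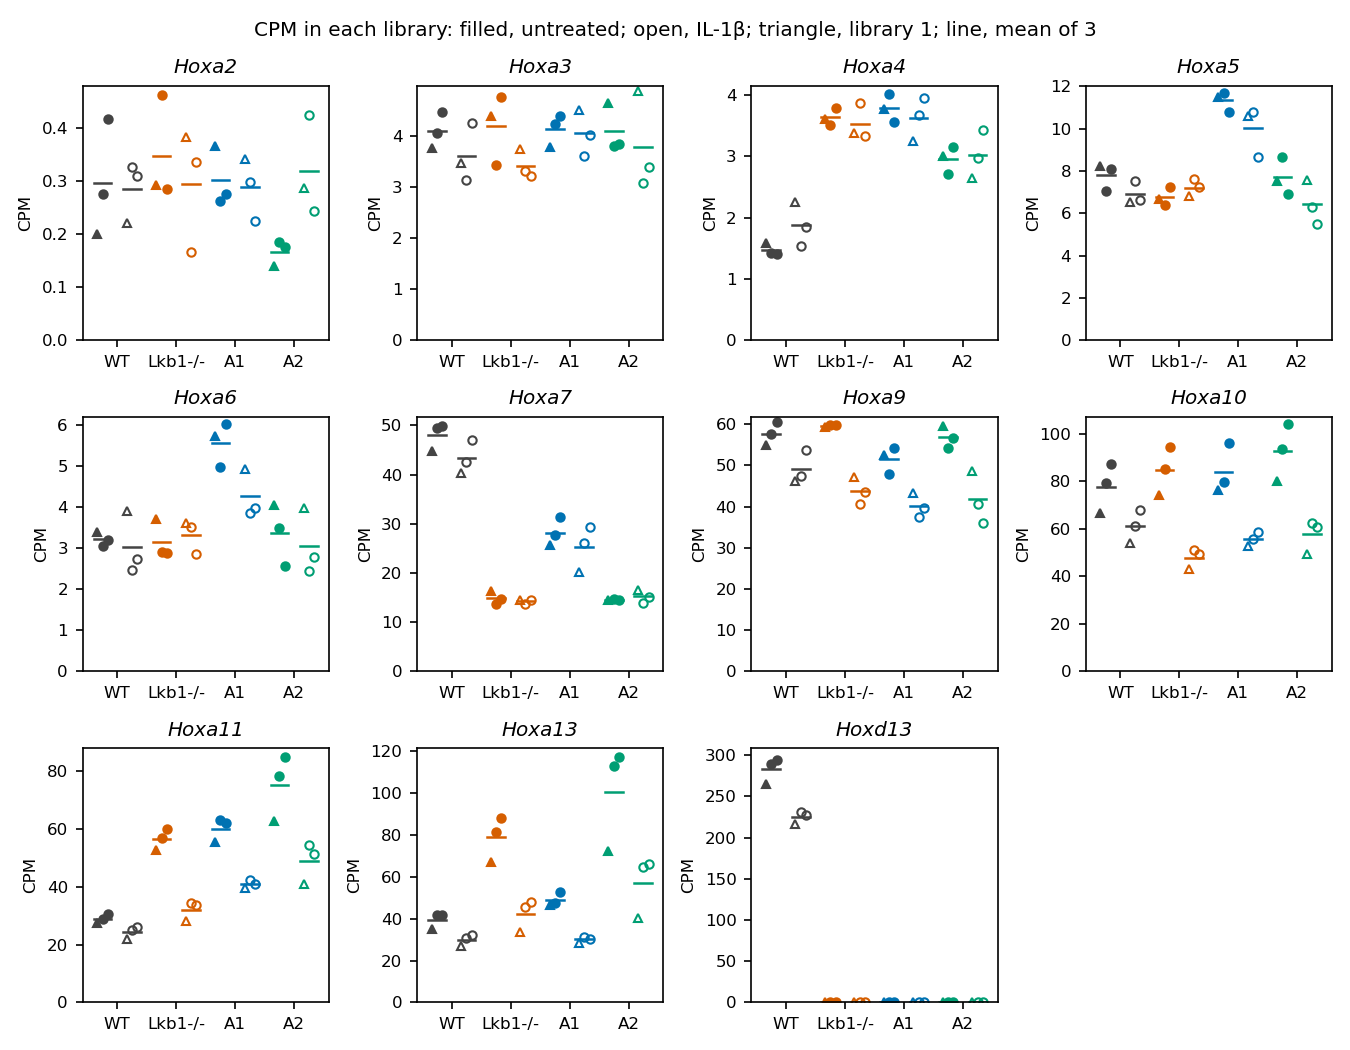
CPM of Hoxa2 to Hoxa13 and Hoxd13 in each of the 24 libraries by genotype, filled for untreated and open for IL-1β, with triangles for library 1 and a line at the mean of 3. Hoxa7 separates WT from Lkb1-/- without overlap, A1 lies between them, and the open symbols of Hoxa11 and Hoxa13 lie below the filled ones in every genotype.

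The 2 double knockout clones had between 0 and 3 counts of each Hoxd gene in any library. Some Hoxa genes were called between each clone and the parent line, and between the clones, in comparisons that called many genes. The comparisons with *Lkb1*-/- MEFs share the *Lkb1*-/- libraries. In untreated A1, 3 of the 11 Hoxa genes were called higher (18.9% of all genes) and 1 lower (16.4%). Together this is near the 35.3% of all genes called in either direction. *Hoxa7* had 25.6, 27.7 and 31.3 CPM in A1, all above the *Lkb1*-/- libraries and all below the WT libraries (0.91 ± 0.11 against *Lkb1*-/-, FDR 1.54e-06). *Hoxa6*, its neighbor, had 3.71, 2.9 and 2.88 CPM in *Lkb1*-/- and 5.73, 4.97 and 6.02 CPM in A1 (0.82 ± 0.2, FDR 0.00292). *Hoxa5*, a gene of lung and mammary development, had 6.68, 6.4 and 7.24 CPM in *Lkb1*-/- and 11.5, 11.7 and 10.8 CPM in A1 (0.74 ± 0.12, FDR 5.32e-05). These 3 genes lie next to each other in the cluster, and none overlapped between the groups, as the rule for naming them required. *Hoxa13* was lower, with 46.4, 47.6 and 52.6 CPM in A1 (-0.69 ± 0.18, FDR 0.00409). The median Hoxa log2 fold change was -0.01, against 0.02 over all genes. *Hoxa9* (-0.21) was called lower as well under the replicate block (FDR 0.0233), which called 48.1% of all genes.

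After IL-1β, 4 of the 11 Hoxa genes were called between A1 and *Lkb1*-/- MEFs, with 3 higher (19.4% of all genes) and 1 lower (17.3%). This is near the 36.7% of all genes called in either direction. *Hoxa7* (0.82 ± 0.11, FDR 5.69e-06), *Hoxa5* (0.48 ± 0.12, FDR 0.00345) and *Hoxa11* (0.35 ± 0.11, FDR 0.0154) were higher, and *Hoxa13* (-0.49 ± 0.18, FDR 0.0359) was lower. The replicate block, which called 49.1% of all genes here, added *Hoxa6* (FDR 0.0452) and *Hoxa10* (FDR 0.00188), both higher in A1. The call of *Hoxa11* was lost without *Lkb1*-/- library 1 (FDR 0.0936) or A1 library 2 (0.0557), and that of *Hoxa13* without *Lkb1*-/- library 2 (0.11) or 3 (0.135) or A1 library 1 (0.101), 2 (0.0644) or 3 (0.0772) or with counts of both strands (0.0607).

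Clone A2 was compared with *Lkb1*-/- MEFs in the same way. Untreated, *Hoxa11* was called higher, with 17.1% of all genes, and *Hoxa2* lower, with 15.1% (32.3% for both directions). *Hoxa11* had 62.7, 78.3 and 84.8 CPM in A2, all above the *Lkb1*-/- libraries (0.41 ± 0.11, FDR 0.00564). *Hoxa2*, at the lowest level of the cluster, had 0.294, 0.464 and 0.286 CPM in *Lkb1*-/- and 0.141, 0.185 and 0.176 CPM in A2 (-1.05 ± 0.37, FDR 0.0339). The call of *Hoxa2* was lost without *Lkb1*-/- library 1 (FDR 0.0502) or 2 (0.176) or any 1 A2 library (0.11, 0.0681 and 0.0801), and also by DESeq2 (0.0684), with counts of both strands (0.0964) and with no filter on low counts (0.179). *Hoxa7*, called higher in A1, had 14.5, 14.7 and 14.5 CPM in A2, within the range of the *Lkb1*-/- libraries. With the replicate block *Hoxa10* (0.13, FDR 0.0497) and *Hoxa13* (0.35, FDR 0.00416) were also called higher in untreated A2, when 45.9% of all genes were called under the block.

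After IL-1β, *Hoxa11* (0.61 ± 0.11, FDR 0.000209) was called higher in A2, as were 17.1% of all genes, with 15.8% lower and 32.8% in both directions. The replicate block again added *Hoxa10* (0.27, FDR 0.000326) and *Hoxa13* (0.43, FDR 0.00077), when 46.6% of all genes were called under it.

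The clones were also compared with each other. Untreated, A2 was higher than A1 in *Hoxa13* (1.04 ± 0.18, FDR 0.000114) and *Hoxa11* (0.32 ± 0.11, FDR 0.0261) and lower in *Hoxa7* (-0.95 ± 0.11, FDR 1.25e-06), *Hoxa6* (-0.72 ± 0.2, FDR 0.00775) and *Hoxa5* (-0.56 ± 0.12, FDR 0.00104), which is 2 Hoxa genes higher (15.8% of all genes) and 3 lower (16.7%, and 32.5% for both directions). The *Hoxa13* libraries did not overlap, with 46.4 to 52.6 CPM in A1 and 72.2 to 117 CPM in A2. After IL-1β, *Hoxa13* (0.92 ± 0.18, FDR 0.000464) was higher in A2, and *Hoxa7* (-0.73 ± 0.11, FDR 3.01e-05) and *Hoxa5* (-0.64 ± 0.12, FDR 0.000345) were lower, against 15.1% and 15.6% of all genes. Without A2 library 3, the untreated calls of *Hoxa11* (FDR 0.104) and *Hoxa6* (0.0658) were lost, and *Hoxa11* was also lost without A1 library 1 (0.118) or A2 library 2 (0.0589) and with counts of both strands (0.0784). With the replicate block, *Hoxa10* was called higher (FDR 0.0342) and *Hoxa4* (0.0342) lower in untreated A2 than A1, and *Hoxa11* higher (0.00143) and *Hoxa6* lower (0.00757) after IL-1β. The block called 46.3% of all genes untreated and 44.4% after IL-1β.

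Against WT, untreated A1 had 4 Hoxa genes higher (30.3% of all genes, with 55.4% called in either direction) and 1 lower, and untreated A2 had 3 higher (32.7%, with 60.6% in either direction) and 1 lower. *Hoxa4* and *Hoxa11* were called higher and *Hoxa7* lower in both clones, with log2 fold changes of 1.35 ± 0.15 and 1.0 ± 0.15 for *Hoxa4*, 1.05 ± 0.11 and 1.38 ± 0.11 for *Hoxa11*, and -0.77 ± 0.11 and -1.72 ± 0.11 for *Hoxa7*. *Hoxa5* (0.54 ± 0.12) and *Hoxa6* (0.79 ± 0.2) were called higher in A1 only, and *Hoxa13* (1.35 ± 0.18) in A2. The test of A2 against A1 above called these 3 genes as well. With the replicate block *Hoxa13* (0.31, FDR 0.00626) was called higher in A1 too, and *Hoxa10* (0.25, FDR 0.000181) in A2. The block called 64.2% of all genes for A1 and 68.6% for A2. The comparisons share the WT libraries.

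**Figure D4:**
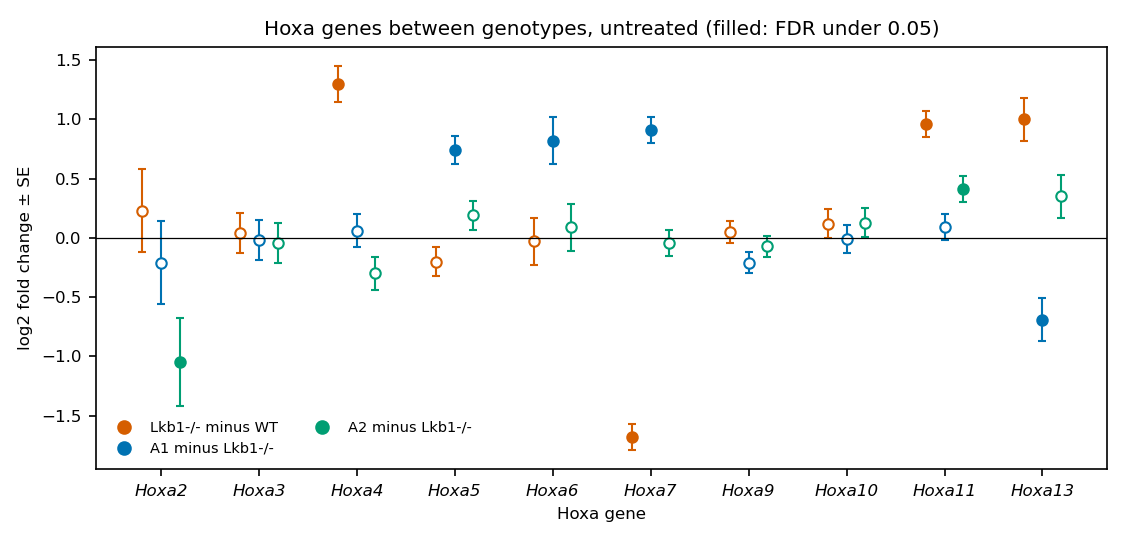
Log2 fold changes with SE of Hoxa2 to Hoxa13 in untreated cells, for Lkb1-/- against WT and each clone against Lkb1-/-, filled where the FDR was under 0.05. Hoxa7 stands at -1.68 in Lkb1-/- against WT and at 0.91 in A1 against Lkb1-/-, and A1 and A2 lie apart at Hoxa5, Hoxa6, Hoxa7 and Hoxa13.

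After IL-1β the posterior Hoxa genes were called lower in the 3 genotypes without LKB1, and no gene from *Hoxa2* to *Hoxa7* was called. In WT the same posterior genes also had log2 fold changes below 0, which this fit did not call. The difference in response between genotypes is tested below. *Hoxa9*, *Hoxa10*, *Hoxa11* and *Hoxa13* were called lower in *Lkb1*-/- MEFs, in A1 and in A2, 4 of 11 Hoxa genes in each, against 2.09%, 0.788% and 2.86% of all genes called lower and 4.74%, 1.99% and 5.68% called in either direction. In *Lkb1*-/- MEFs *Hoxa13* went from 67.2, 81.6 and 88.0 CPM to 33.6, 45.4 and 48.1 CPM (-0.9 ± 0.18, FDR 0.0032), *Hoxa10* from 74.4, 85.0 and 94.5 to 43.1, 51.1 and 49.5 CPM (-0.82 ± 0.13, FDR 0.000224) and *Hoxa11* from 52.7, 56.7 and 60.0 to 28.0, 34.3 and 33.6 CPM (-0.82 ± 0.11, FDR 4.95e-05). *Hoxa9*, a gene known for its part in blood stem cells and leukemia, went from 59.2, 59.8 and 59.9 to 47.2, 40.5 and 43.5 CPM (-0.45 ± 0.09, FDR 0.00348). None of these groups overlapped, as the rule for naming required, and the 4 calls held without any 1 library and under every other setting tried.

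In A2 the log2 fold changes were -0.82 ± 0.18 for *Hoxa13* (FDR 0.00602), -0.68 ± 0.13 for *Hoxa10* (FDR 0.00134), -0.62 ± 0.11 for *Hoxa11* (FDR 0.000904) and -0.44 ± 0.09 for *Hoxa9* (FDR 0.00338), the last lost without A2 IL-1β library 3 (FDR 0.0781). *Hoxa13* went from 72.2, 113 and 117 CPM to 40.5, 64.7 and 66.0 CPM there, without overlap. In A1 they were -0.7 ± 0.18 for *Hoxa13* (FDR 0.0463), -0.59 ± 0.13 for *Hoxa10* (FDR 0.0118), -0.56 ± 0.11 for *Hoxa11* (FDR 0.00656) and -0.36 ± 0.09 for *Hoxa9* (FDR 0.0387). The A1 groups did not overlap in any of the 4 genes, and *Hoxa11* kept its call in every setting. In A1 the call of *Hoxa13* was lost without any 1 of the 6 libraries (FDR 0.0913 to 0.193), that of *Hoxa10* without IL-1β library 1 (0.0721) or 2 (0.0536) or untreated library 3 (0.101), and that of *Hoxa9* without untreated library 1 (0.123) or 3 (0.187) or IL-1β library 2 (0.208) or 3 (0.187). *Hoxa9* also lost its call with DESeq2 size factors (0.0561) and upper quartile scaling (0.123), and *Hoxa13* with counts of both strands (0.0626). Under the replicate block the FDR in A1 was 3.01e-05 for *Hoxa13*, 7.97e-08 for *Hoxa10*, 9.24e-07 for *Hoxa11* and 0.0033 for *Hoxa9*.

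In WT MEFs *Hoxd13* was the 1 member called after IL-1β in the fit with the filter on low counts and without a block, and it was lower (-0.33 ± 0.07, FDR 0.0466), against 0.731% of all genes called lower and 2.26% called in either direction. The call was lost without untreated WT library 2 (FDR 0.214) or 3 (0.125) or IL-1β library 1 (0.178), 2 (0.125) or 3 (0.0892), and with counts of both strands (0.0526). None of the 11 Hoxa genes was called there by edgeR or by DESeq2, while edgeR with no filter on low counts also called *Hoxa10* and *Hoxa13* lower. In the filtered fit 5 had an unadjusted p under 0.05, and *Hoxa13* (-0.4 ± 0.18), *Hoxa10* (-0.35 ± 0.12), *Hoxa11* (-0.25 ± 0.11) and *Hoxa9* (-0.24 ± 0.09) had values below 0. With the replicate number as a block, *Hoxa10* (FDR 0.000113), *Hoxa13* (0.0099) and *Hoxa11* (0.0115) were called lower, *Hoxd13* kept its call (FDR 0.00122), and *Hoxa9* was at 0.0551, so that 4 members were called lower in place of 1, when 4.59% of all genes were called lower under the block in place of 0.731%. Library 1 had the lowest CPM of its group for *Hoxa10*, *Hoxa11* and *Hoxa13* in all 8 groups. *Hoxa13* had 35.1, 41.7 and 41.6 CPM in untreated WT and 26.8, 30.9 and 32.0 CPM after IL-1β.

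No member was called higher after IL-1β in any genotype, by edgeR or DESeq2, against 1.53% of all genes in WT, 2.65% in *Lkb1*-/-, 1.2% in A1 and 2.81% in A2. The values above 0 with an unadjusted p under 0.05 were *Hoxa4* in WT (0.34 ± 0.15, FDR 0.361) and *Hoxa2* in A2 (0.93 ± 0.37, FDR 0.173). The 6 genes from *Hoxa2* to *Hoxa7* had log2 fold changes between -0.39 and 0.93 in the 4 genotypes and none was called. The median log2 fold change of the 11 Hoxa genes was -0.18 in WT, -0.25 in *Lkb1*-/-, -0.18 in A1 and -0.22 in A2, against medians between -0.02 and 0.0 over all genes. The summed Hoxa level per length went from 111 ± 8.39 to 71.2 ± 5.07 CPM per kb in *Lkb1*-/- MEFs and from 91.1 ± 6.45 to 76.3 ± 5.35 in WT.

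**Figure D5:**
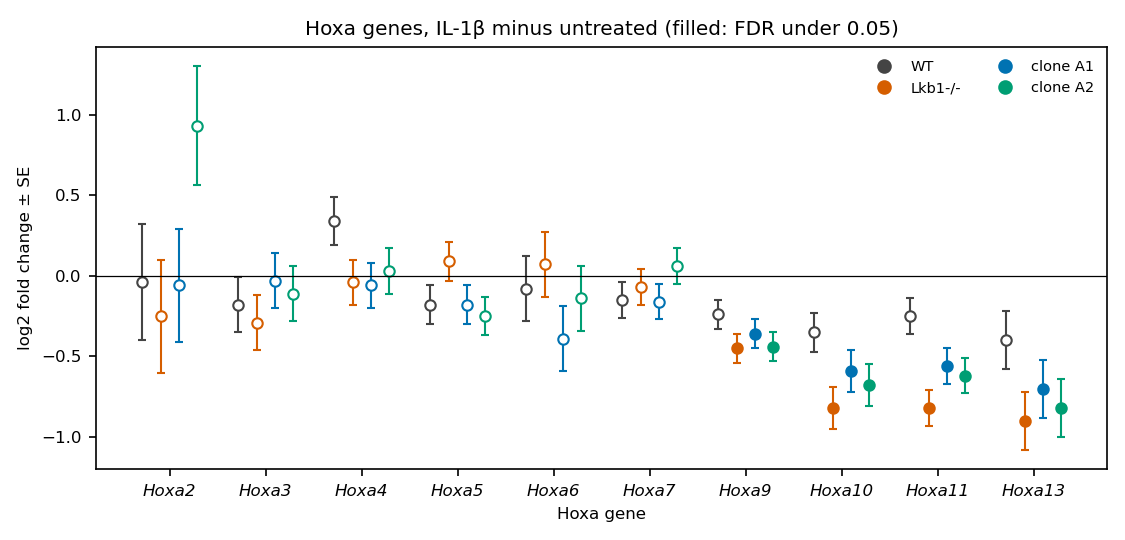
Log2 fold change with SE of Hoxa2 to Hoxa13 after IL-1β in the 4 genotypes, filled where the FDR was under 0.05 in the fit without a block. From Hoxa9 to Hoxa13 all values lie below 0 and those of Lkb1-/-, A1 and A2 are filled, whereas no gene from Hoxa2 to Hoxa7 is.

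Whether the response itself differed between genotypes was tested as a difference of fold changes. Between *Lkb1*-/- and WT MEFs no member was called by edgeR or DESeq2 (0.245% of all genes), although upper quartile scaling called *Hoxa11* and the fit with no filter on low counts called *Hoxa10*, *Hoxa11* and *Hoxa13*. In the reported fit 2 had an unadjusted p under 0.05: *Hoxa11* (-0.57 ± 0.16, FDR 0.221) and *Hoxa10* (-0.47 ± 0.18, FDR 0.655). With the replicate block, which called 1.77% of all genes, both were called, the fall being larger in *Lkb1*-/- MEFs (FDR 0.000598 for *Hoxa11* and 0.00115 for *Hoxa10*), while *Hoxa13* (-0.5, FDR 0.0594) and *Hoxa9* (-0.21, FDR 0.474) were not. Between A1 and *Lkb1*-/- no member was called (0.0285% of all genes), none had an unadjusted p under 0.05, and the differences of the 4 posterior genes lay between 0.09 ± 0.13 and 0.26 ± 0.16. Between A2 and *Lkb1*-/- none of the 17522 genes was called in the reported edgeR fit and 388 had an unadjusted p under 0.05. DESeq2 called 12 genes, edgeR with the replicate block 18, with upper quartile scaling 1 and with no filter 68, none of them a member. *Hoxa2* (1.18 ± 0.51) was the 1 member there with an unadjusted p under 0.05.

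RNAs that share the Hox clusters were examined next. *Hottip*, a long noncoding RNA that starts at -1.9 kb from *Hoxa13*, on the side away from *Hoxa11*, had 0.067, 0.0921 and 0.104 CPM in untreated WT and 1.52, 1.83 and 1.76 CPM in *Lkb1*-/- (4.25 ± 0.34, FDR 9.21e-10). It was lower in A1 than in *Lkb1*-/- (-0.76 ± 0.25, FDR 0.0234) and fell after IL-1β in *Lkb1*-/- (-1.14 ± 0.26, FDR 0.00896) and in A2 (-0.9 ± 0.24, FDR 0.0321). These directions are those of *Hoxa13* in the comparisons just named, but other comparisons parted. In A1 mean *Hottip* was 1.01 CPM untreated and 0.949 CPM after IL-1β, without a call, where *Hoxa13* went from 48.8 to 30.1 CPM. After IL-1β mean *Hottip* was 0.77 CPM in *Lkb1*-/-, below A1 and without a call, where *Hoxa13* was above A1 (42.4 CPM). *Hoxa11os*, transcribed against *Hoxa11*, fell after IL-1β in *Lkb1*-/- (-0.68 ± 0.16, FDR 0.0116), and since the counts keep strand the 2 genes were counted apart. Of 14 listed noncoding RNAs 11 were in the tables and 6 were tested, with 2 higher and 1 lower in untreated *Lkb1*-/- than WT, where 30.1% and 25.8% of all genes were. *Hoxd3os1*, in the Hoxd cluster, was the lower one, with 0.268, 0.299 and 0.365 CPM in untreated WT and at most 1 count in a library outside WT, and *Hoxaas3* (0.88 ± 0.27, FDR 0.00931) the other higher one. *Hoxd3os1* passed the filter through the WT libraries, so its call was fixed in advance and is a description. *Hotair*, of the Hoxc cluster, had 3 counts in 1 A1 library and none elsewhere. Of 19 listed genes beside the clusters 13 were tested, with 3 higher and 4 lower in untreated *Lkb1*-/- than WT against those same shares of all genes, *Jazf1* on the Hoxa side (5.4 ± 0.47, FDR 2.65e-09) and *Calcoco1* (0.62 ± 0.23, FDR 0.0245) among the higher. *Evx2*, among the lower, also passed the filter through the WT libraries, so its call is a description.

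Cofactors and chromatin regulators of Hox genes had members called in both directions, in a comparison that called 30.1% of all genes higher, 25.8% lower and 55.9% in all. Of the 9 TALE cofactors, which bind DNA together with Hox proteins, 8 were tested and 6 were higher and 1 lower in untreated *Lkb1*-/- than WT, led by *Pknox2* (3.14 ± 0.55, FDR 4.89e-05), *Pbx4* (1.86 ± 0.31, FDR 3.03e-05) and *Meis3* (1.0 ± 0.1, FDR 2.36e-08). The median was 0.52, against 0.04 over all genes. *Pknox2* was higher still in A1 (2.3 ± 0.38, FDR 6.62e-05) and A2 (2.71 ± 0.38, FDR 1.38e-05), and *Meis1* had at most 3 counts in any library. Of 29 Polycomb genes, whose products keep Hox clusters silent, 14 were higher and 9 lower, with a median of 0.06. *Pcgf5* (-1.3 ± 0.07, FDR 2.45e-12) and *Rnf2* (-1.1 ± 0.09, FDR 1.83e-09), which encodes a ubiquitin ligase of Polycomb complex 1, were lower and *Phf1* (1.01 ± 0.1, FDR 2.26e-08) higher. Of 14 Trithorax and MLL genes, which keep Hox genes active, 5 were higher and 3 lower, with *Dot1l*, a histone methyltransferase, at -1.33 ± 0.13 (FDR 2.36e-08), *Kdm6b*, a histone demethylase, at -0.38 ± 0.08 (FDR 0.000632) and *Ash1l* at 0.37 ± 0.07 (FDR 0.000204).

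Retinoic acid, which turns on anterior Hox genes in the embryo, is served by 18 listed genes, of which 12 were tested and 6 were higher and 3 lower in untreated *Lkb1*-/- than WT, again against 30.1% and 25.8% of all genes. *Dhrs3*, a retinal reductase, was higher (2.96 ± 0.57, FDR 0.000148) and *Cyp26b1*, which breaks retinoic acid down, was lower (-2.87 ± 0.44, FDR 9.71e-06). None of the 3 *Cdx* genes passed the filter. After IL-1β in *Lkb1*-/- MEFs, where 4.74% of all genes were called, the genes called in these lists were *Crabp2* (-0.96 ± 0.18, FDR 0.00158) of the retinoic acid genes, *Pcgf2* (-0.25 ± 0.07, FDR 0.0296) and *Cbx6* (-0.21 ± 0.05, FDR 0.0187) of the Polycomb genes, all lower, which is 1 of 12 and 2 of 29. None of the 8 cofactors or 14 Trithorax and MLL genes was called by edgeR. Of those 22 genes, *Meis2* (-0.64) and *Pknox1* (-0.25) had an unadjusted p under 0.05.

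Of 38 other listed regulators of position 23 were tested, with 9 higher and 11 lower in untreated *Lkb1*-/- than WT, against 30.1% and 25.8% of all genes. *Shox2*, a gene of the proximal limb, had 0.201, 0.253 and 0.313 CPM in WT and 32.3, 38.2 and 36.2 CPM in *Lkb1*-/- (7.12 ± 0.21, FDR 7.44e-17), with similar levels in A1 (31.8, 37.1 and 31.2 CPM) and A2 (30.4, 43.0 and 34.5 CPM). *En1*, a gene of the midbrain boundary and the ventral limb, had 5.47, 6.15 and 5.03 CPM in WT and no count in untreated *Lkb1*-/- libraries. *Barx2* went the other way, with no count in any WT library, 1.11, 2.18 and 2.02 CPM in untreated *Lkb1*-/-, and 12.9, 19.4 and 22.7 CPM in A1 (3.37 ± 0.41 against *Lkb1*-/-, FDR 7.05e-06). *Pitx1*, a gene of hindlimb identity, was expressed in all libraries, between 39.8 and 92.9 CPM, and was lower after IL-1β in *Lkb1*-/- (-0.67 ± 0.13, FDR 0.00239) and in A2 (-0.49 ± 0.13, FDR 0.024). *Prrx1*, a gene of limb mesenchyme, was higher after IL-1β in *Lkb1*-/- (0.78 ± 0.11, FDR 6.8e-05). *Tbx4* and *Tbx5*, of hindlimb and forelimb, had at most 2 counts in any library.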

How the data were processed

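The authors trimmed 50 bp paired-end reads with Trim Galore 0.6.0 and aligned them to mm10 with STAR 2.7.8a and GENCODE annotation, and the deposited values are STAR's raw counts per gene. The column of the gene's strand was used, since it held 95.47% to 95.95% of the stranded counts. The 4 lines that name no gene (26.72% to 34.42%) were left out, and 0 columns were unmapped. The sources differ on the library kit. Symbols came from GENCODE, with a symbol for 55144 of 55471 genes.

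All 24 libraries were fitted together in edgeR 4.0.16 (R 4.3.3) with 1 coefficient per group, TMM scaling and the filterByExpr filter (17522 genes), and tested by quasi-likelihood with Benjamini-Hochberg adjustment. The script was tested on simulated data. CPM were scaled to the counts on genes of each library, and divided by exon length where genes are compared. A floor of 3 counts per library stands for 0.

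Alternatives were DESeq2 1.42.0, its size factors, upper-quartile scaling, counts of both strands, no filter, the replicate block and leaving out each library. Members and lists were chosen with earlier results of these data known. Named were, per comparison, up to 4 members in each direction with the largest called change without overlap, the highest member of each cluster, the targeted genes, and up to 3 called genes per list. Others were named after their values were seen. Results of some genes are not reported here.

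The labels give a replicate number and no shared day or culture. Over 9369 genes with a mean log2 CPM above 3, deviations of libraries with the same number correlated at 0.238 to 0.819 (84 of 84 pairs above 0.1), and over all 17522 genes at 0.0355 to 0.589 (69 of 84), so the pairing is a hint from the data.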

Additional observations from a re-analysis of the deposited data

Results flagged for a closer look

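*Hoxc11* had no count on its own strand in any library and between 6 and 37 counts on the opposite strand, a column the comparisons did not use.

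The fall of *Hoxa10* after IL-1β was larger in *Lkb1*-/- than in WT MEFs by -0.47 on the log2 scale, and that of *Hoxa11* by -0.57, when the difference was tested with the replicate number as a block. In the edgeR fit as reported, without the block, neither was called. Without the block, *Hoxa11* was called under upper quartile scaling, and *Hoxa10*, *Hoxa11* and *Hoxa13* were called with no filter on low counts.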

How the results depend on the processing

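Of the 17 comparisons, DESeq2 and its size factors left the count of called Hox genes within 1.5 times in all 17. With the replicate block it was 5 for untreated A2 against *Lkb1*-/-, 4 for the same after IL-1β, 8 for untreated A2 against A1, 4 for IL-1β in WT and 2 for the response of *Lkb1*-/- minus WT, and the block lost no member's call. Of all genes the block called 45.9%, 46.6% and 46.3% in the first 3 of these, in place of 32.3%, 32.8% and 32.5%, 9.3% for IL-1β in WT in place of 2.26%, and 1.77% for the response in place of 0.245%. Without a filter the count of called Hox genes was 3 for IL-1β in WT and 3 for that response, which was 1 under upper-quartile scaling. With both strands counted it was 1 for A2 against *Lkb1*-/- after IL-1β and 0 for IL-1β in WT. Upper-quartile scaling moved the median of all genes in *Lkb1*-/- against WT after IL-1β from 0.0325 to 0.135.

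With 1 library left out the count ran from 2 to 3 for A1 against *Lkb1*-/- after IL-1β, 1 to 3 for A2 against *Lkb1*-/- both untreated and after IL-1β, 3 to 6 for A2 against A1 in both, 0 to 1 for IL-1β in WT, 1 to 3 in A1, 3 to 4 in A2 and 4 to 4 in *Lkb1*-/-. The cause was not tested. No called value changed direction.

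The depth limits the Hoxb and Hoxc clusters, where a level under 0.0604 to 0.0782 CPM could not be told from 0.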
